A study of Mus musculus with 12 samples.

Results

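Chemokines and their receptors were taken as every gene in the brain and spleen expression tables whose symbol begins with Ccl, Ccr, Cxcl, Cxcr, Xcl, Xcr, Cx3cl or Cx3cr followed by a digit. The rule found 58 of 24062 genes, of which 39 encode ligands and 19 encode receptors. Pf4, Ppbp and the atypical receptors of the Ackr family, which carry other symbols, are outside it and are counted with the pathway genes further on.

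The tables hold poly(A)-selected, stranded RNA-seq of 75 bp single reads from 4 groups of 3 mice: Norad-/- brain, Norad+/+ brain, Norad-/- spleen and Norad+/+ spleen. All mice were 10-week-old males on a C57BL/6 background. Norad-/- mice lack the long noncoding RNA Norad from the germ line onward in every tissue, through a deletion made with Cas9 and a pair of guides in fertilized C57BL/6J eggs, and the study used lines from 3 founders without the labels saying which mouse came from which line. Norad+/+ mice are wild type at the locus, and neither genotype received a treatment. Values are FPKM, fragments scaled to transcript length and to the mapped reads of the library. In bulk tissue, fewer cells of a type and less RNA per cell cannot be told apart.

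Chemokines are small secreted proteins that bind G protein-coupled receptors on leukocytes and steer cells along gradients of ligand. Homeostatic members such as Cxcl12, Cxcl13, Ccl19 and Ccl21 place lymphocytes within the spleen and lymph nodes, and inflammatory members recruit neutrophils, monocytes, eosinophils and effector T cells. In brain, the neuronal ligand Cx3cl1 and its microglial receptor Cx3cr1 form the best known pair.

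The targeted gene followed the labels, with Norad at 0.0173 FPKM or less in all Norad-/- libraries. In Norad+/+ libraries it had 206, 259 and 635 FPKM in brain and 62.0, 42.9 and 56.3 FPKM in spleen. Estimated depth was 28.4 to 36.7 M reads per library. The brain library least like the others was Norad+/+ replicate 3, whose median Spearman correlation with them was 0.980, against 0.984 to 0.986 for each of the remaining brains. Norad+/+ spleen replicate 3 had the lowest value among spleens, 0.972, and held pancreatic and liver transcripts, with a summed 320 FPKM over 6 such markers against 3.18 to 9.51 FPKM in the other spleens. Norad-/- brain replicate 3 held pituitary hormone transcripts, with a summed 1338 FPKM over 6 markers against 0.808 to 1.48 FPKM in the other brains.

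The series was made to ask what loss of Norad, a sink for the PUMILIO RNA-binding proteins, does to mRNA levels in tissue. PUMILIO proteins bind an 8-base element in 3′ UTRs, UGUANAUA, and repress the mRNAs that carry it. A search for this element, one strand only, in the longest annotated 3′ UTR found it in 8 of 55 members with a UTR in GENCODE M21. It was present in 3 of 8 members tested in brain, beside 28.2% of the 11934 tested genes with a UTR there. In spleen it was present in 5 of 30 members tested, beside 25.7% of the 11247 tested genes with a UTR. Members' median UTR length was 2229 bases in brain and 1206 in spleen, beside 1456 and 1333 for those genes. The elements of 6 tested members are shown because they hold the letters that PUMILIO proteins recognise. Each line gives 30 bases of 3′ UTR in GRCm38, 5′ to 3′, with the element in capitals.

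Ccl28, chr13:119651498-119651527, plus strand: gugugugugugUGUACAUAcauauaagaac
Ccl28, chr13:119654129-119654158, plus strand: uuuuauuguaaUGUAAAUAgcuaaugagau
Cxcl14, chr13:56288808-56288837, minus strand: gcccucuccugUGUACAUAuugccuucagu
Ccr2, chr9:124106844-124106873, plus strand: agggagcaguuUGUACAUAgcaacaagccu
Ccr2, chr9:124107178-124107207, plus strand: auaucucuucuUGUAUAUAuaauacauguu
Ccr2, chr9:124109193-124109222, plus strand: uacuuuacaauUGUAUAUAccuggugcuug
Cxcr2, chr1:74161119-74161148, plus strand: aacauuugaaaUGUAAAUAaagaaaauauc
Cxcl5, chr5:90760903-90760932, plus strand: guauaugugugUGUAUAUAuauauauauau
Cxcl10, chr5:92346855-92346884, minus strand: gaaaauguaugUGUAAAUAcuauuuaauga

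Of these, Ccr2 had 3 elements, Ccl28 had 2, and the other 4 members had 1. A match describes these letters only, and binding was not measured here.

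The 58 genes lie on 11 chromosomes, with 14 on chromosome 11, 12 on chromosome 9 and 11 on chromosome 5. An array of receptor genes on chromosome 9 includes Ccr9, Cxcr6, Xcr1, Ccr1, Ccr1l1, Ccr3 and Ccr2. An array of 5 CC ligand genes spans chr11:83525778-83664683 (GRCm38) and holds Ccl5, Ccl9, Ccl6, Ccl3 and Ccl4. Near-identical copies make some values uncertain, since only reads with a unique place in the genome were kept. All 75-base stretches of Ccl21b, 98.0% of those of Ccl27b and 61.3% of those of Ccl21a also occur in transcripts of other genes. The same holds for 45.3% in Ccl19, 39.8% in Cxcl11, 33.3% in Ccl27a, 19.3% in Ccr9 and 15.4% in Cxcl16, and for at most 5.79% in any other member matched to the annotation. Of the genes behind these shares, Zmynd15 for Cxcl16, Gm2673 for Cxcl11 and AC165425.1 for Ccr9 overlap the member on the opposite strand. Gm17200, also behind the share of Ccr9, overlaps it on the same strand.

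Brain and spleen expressed different members of the family. With a filter at a mean of 1 FPKM over the 6 libraries of a tissue, 8 members passed in brain (5 ligands and 3 receptors) and 30 passed in spleen (15 ligands and 15 receptors). Passing in both were 4 members, among them Cxcl12, Cxcr4 and Cx3cr1, and 24 members passed in neither. Of the 58 members, 5 were listed at 0 in all brain libraries and 2 in all spleen libraries. A mean of at least 10 FPKM was reached by 3 members in brain, Cx3cl1, Cxcl14 and Cxcl12, and by 17 in spleen.

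Brain was set against spleen in Norad+/+ mice to give the size of this split. The tables were deposited separately and FPKM is scaled within each library, and the same mice may have given both organs. Among genes tested across the tissues, 35.4% were higher in brain and 43.6% were lower in brain after adjustment of limma's p-values over all genes. Of 30 members tested, 3 were higher in brain, 26 were lower in brain and 1 passed in neither direction. The filter here was a mean over both organs together, so a member could enter through the organ where it was high alone. These counts therefore restate the split above and are no separate support for it. The members' median log2 difference, brain minus spleen, was -5.65, beside -0.24 over all genes tested.

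Cx3cl1, a ligand tethered to neuronal membranes, had 232, 197 and 116 FPKM in Norad+/+ brains, against 0.839, 0.499 and 1.94 FPKM in Norad+/+ spleens. The log2 difference on the FPKM + 0.1 scale was 7.38 (SE 0.48, adjusted p = 9.75e-06 from limma). It was the most abundant member in every brain library and took 63.0% to 75.9% of the summed FPKM of all members there. Cxcl14, an epithelial and neuronal chemokine, had 35.2, 41.3 and 31.7 FPKM in the brains, against 0.0692, 0 and 0.372 FPKM in the spleens (log2 difference 7.49, SE 0.54, adjusted p = 1.58e-05 from limma). Ccl27a, known as a skin chemokine, had 6.41, 5.39 and 8.48 FPKM in brain against 0.287, 0.490 and 0.490 FPKM in spleen, a log2 difference of 3.72 (SE 0.25, adjusted p = 1.20e-05 from limma). For each of these 3 ligands every brain library lay above every spleen library.

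Cx3cr1, the receptor of Cx3cl1 on microglia and on blood monocytes, was the tested member that passed in neither direction. It had 8.61, 7.75 and 5.98 FPKM in brain, against 11.1, 8.41 and 8.07 FPKM in spleen (log2 difference -0.30, SE 0.19, adjusted p = 0.191 from limma), and the ranges overlapped. Cxcl12 passed the filter in both tissues and had 14.6, 16.0 and 13.2 FPKM in brain against 187, 168 and 174 FPKM in spleen (log2 difference -3.59, SE 0.13, adjusted p = 1.02e-06 from limma). For its receptor Cxcr4 the values were 0.943, 1.396 and 1.12 FPKM in brain against 133, 121 and 167 FPKM in spleen, a log2 difference of -6.81 (SE 0.19, adjusted p = 6.30e-07 from limma).

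Among the 4 largest differences towards spleen were genes of the B cell follicle and T cell zone, beside Cxcl9 at a log2 difference of -8.89 (SE 0.77), and all of them passed after adjustment in limma. Cxcl13, the ligand that draws B cells into follicles, had 0.120, 0.679 and 0.0606 FPKM in brain against 273, 144 and 240 FPKM in spleen (log2 difference -9.45, SE 0.60). Its receptor Cxcr5 had 0.0678, 0.409 and 0.0538 FPKM in brain against 133, 109 and 120 FPKM in spleen (log2 difference -8.996, SE 0.45). Ccr7, which guides T cells and mature dendritic cells, had 0, 0.0966 and 0.0178 FPKM in brain against 50.7, 44.1 and 47.4 FPKM in spleen (log2 difference -8.49, SE 0.26). In brain the highest Cxcl13 and Cxcr5 values of all 6 libraries were those of Norad+/+ replicate 2, followed by Norad-/- replicate 1 at 0.469 and 0.217 FPKM. Those libraries also had the highest summed FPKM of 8 B cell markers, 5.84 in Norad+/+ replicate 2 and 4.02 in Norad-/- replicate 1, against 0.943 to 1.55 in the other brains.

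**Figure D1:**
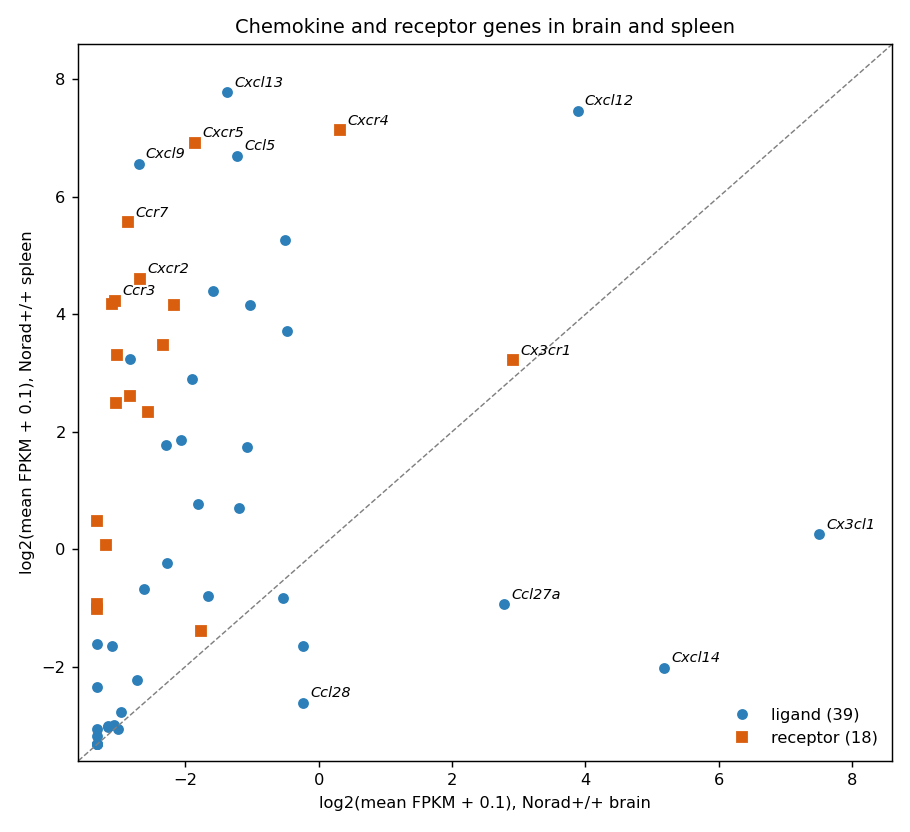
Mean level of 57 of the 58 genes in Norad+/+ brain (horizontal) and Norad+/+ spleen (vertical), as log2 of the mean FPKM of 3 mice plus 0.1, with circles for ligands, squares for receptors and a dashed line at equal levels. Cx3cl1, Cxcl14 and Ccl27a lie far to the right of the line, Cx3cr1 lies close to it, and most receptors lie along the left edge above it.

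Loss of Norad was then compared within each organ. In spleen 0 of 30 tested members passed an adjusted p of 0.05 in limma, beside 0.0323% of the 12397 genes tested. At an unadjusted p under 0.05, 6 members were higher in Norad-/- spleens, beside 7.42% of all genes, and 7 were lower, beside 13.6% of all genes. The 13 are therefore given with their values and are not calls. Those with higher values were Ccr6, Ccr9, Ccl22, Cxcr4, Ccr7 and Ccl5. Those with lower values were Ccr3, Cxcr2, Cxcl5, Ccr1, Ccl6, Ccr2 and Cxcl12, of which Cxcl5 passed the filter through Norad+/+ libraries alone. Groups did not overlap for 8 members with higher and 7 with lower values, where 11.6% and 14.9% of all genes tested did so. Of all members tested, 19 had a log2 fold change above 0 and 11 below 0, and their median was 0.13, beside -0.02 for all genes.

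The scale matters to this balance. When FPKM was rescaled to TPM, the median of all genes became 0.10, and the members' median became 0.25. The unadjusted p was then under 0.05 for 8 members with higher and 6 with lower values, beside 12.3% and 9.21% of all genes. The smallest adjusted p among members was 0.0920 in the fit as described.

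**Figure D2:**
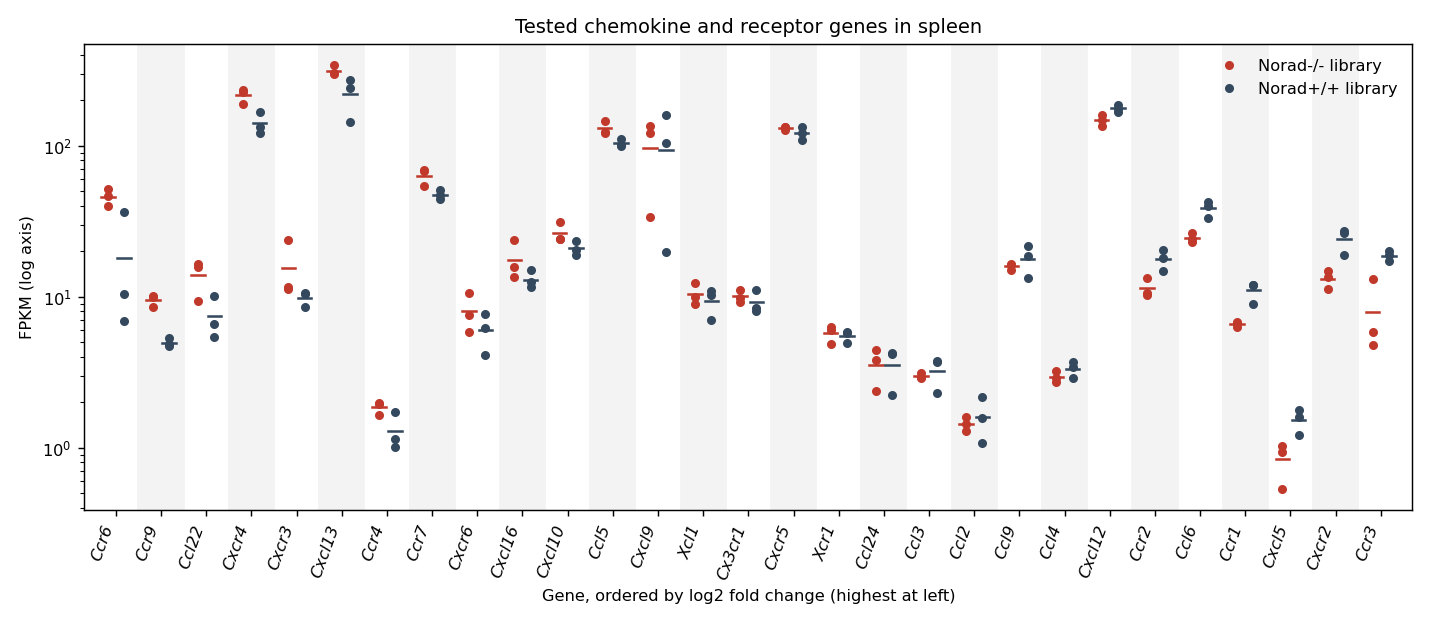
FPKM (log axis) of 29 of the 30 members tested in spleen, with 1 point per library, Norad-/- left of Norad+/+ for each gene, short bars at the mean of 3, and genes ordered by log2 fold change. Ccr9 and Ccr1 show tight groups that do not overlap, and Ccr6 and Cxcl9 show the widest spread within Norad+/+ spleens.

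Among receptors of lymphocytes and dendritic cells, Ccr9, known for homing of T cells and plasmacytoid dendritic cells to the gut, had the smallest p. It had 9.88, 10.1 and 8.50 FPKM in Norad-/- spleens, against 5.32, 4.86 and 4.71 FPKM in Norad+/+ spleens. All 3 Norad-/- libraries lay above all Norad+/+ libraries, and the means were 9.51 ± 0.88 and 4.96 ± 0.31 FPKM (SD, n = 3 each). The log2 fold change was 0.92 (SE 0.10, adjusted p = 0.0920 from limma), and over 15 alternative settings the adjusted p ran from 0.0454 to 0.347. Ccr9 passed the threshold when Norad-/- spleen replicate 3 was left out (log2 fold change 0.999, adjusted p = 0.0454 from limma), a fit in which 93 genes passed instead of 4.

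Ccr6, the receptor of Ccl20 on B cells and subsets of T cells, had the largest log2 fold change of the tested members. Its values were 51.5, 40.1 and 46.4 FPKM in Norad-/- spleens, against 10.5, 6.96 and 36.6 FPKM in Norad+/+ spleens. The Norad-/- libraries stood close together and above the rest, while Norad+/+ replicate 3 sat far nearer to them than to its own group, so the coefficient of variation was 12.4% in Norad-/- and 90.0% in Norad+/+ spleens. The log2 fold change was 1.71 (SE 0.58, adjusted p = 0.197 from limma). Without Norad+/+ replicate 3, the library with pancreatic transcripts, it was 2.41 (SE 0.20, adjusted p = 0.0478 from limma). The summed FPKM of 8 B cell markers was 2055, 2089 and 1855 in Norad-/- spleens against 2000, 1620 and 1621 in Norad+/+ spleens. All 8 had a log2 fold change above 0. Of them 2 had a higher value at an unadjusted p under 0.05 in limma, beside 7.42% of all genes. The part of cell composition in the values of Ccr6 was not tested.

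Cxcr4, the receptor that holds leukocytes and their precursors near Cxcl12, had 233, 225 and 189 FPKM in Norad-/- spleens against 133, 121 and 167 FPKM in Norad+/+ spleens (log2 fold change 0.62, SE 0.15, adjusted p = 0.154 from limma). Its ligand Cxcl12, made by stromal cells, had 135, 160 and 148 FPKM in Norad-/- spleens against 187, 168 and 174 FPKM in Norad+/+ spleens (log2 fold change -0.26, SE 0.09, adjusted p = 0.206 from limma). Neither gene's groups overlapped, and receptor and ligand differed in opposite directions, although the log2 fold change of Cxcl12 was -0.14 (adjusted p = 0.518 from limma) after rescaling to TPM. Ccr7 had 67.5, 68.5 and 54.1 FPKM in Norad-/- spleens against 50.7, 44.1 and 47.4 FPKM in Norad+/+ spleens, again without overlap (log2 fold change 0.41, SE 0.12, adjusted p = 0.181 from limma).

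The ligands of Ccr7 were listed near 0 in spleen, where they are known to be made. Ccl19 had 0.0340, 0.0730 and 0.0787 FPKM in Norad-/- spleens and was listed at 0 in all 3 Norad+/+ spleens, and the highest value of Ccl21a in any spleen was 0.102 FPKM. Ccl21c was identical in all libraries to 3 further entries of the tables, Gm10591, Gm13304 and Gm21541. These members share sequence with other genes. Whether reads from them were lost as not unique was not tested, and no level is read from them.

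Cxcl13 and Cxcr5, the follicle pair, were among the 5 most abundant members with Cxcl12, Cxcr4 and Ccl5. Cxcl13 had 301, 341 and 300 FPKM in Norad-/- spleens against 273, 144 and 240 FPKM in Norad+/+ spleens, with no overlap and a wide Norad+/+ group (log2 fold change 0.57, SE 0.24, adjusted p = 0.242 from limma), and the log2 fold change was 0.29 without Norad+/+ replicate 2. For Cxcr5 the values were 133, 133 and 127 FPKM in Norad-/- spleens against 133, 109 and 120 FPKM in Norad+/+ spleens, which overlapped (log2 fold change 0.12, SE 0.09, adjusted p = 0.493 from limma).

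Receptors of neutrophils, monocytes and eosinophils included Cxcr2, Ccr1, Ccr2 and Ccr3, of which none passed after adjustment. Cxcr2, the main chemokine receptor of mature neutrophils, had 13.5, 11.3 and 14.7 FPKM in Norad-/- spleens against 18.8, 26.6 and 27.3 FPKM in Norad+/+ spleens (log2 fold change -0.86, SE 0.18, adjusted p = 0.145 from limma). Ccr1, carried by monocytes and neutrophils, had 6.76, 6.31 and 6.66 FPKM in Norad-/- spleens against 8.97, 12.01 and 12.01 FPKM in Norad+/+ spleens (log2 fold change -0.72, SE 0.13, adjusted p = 0.141 from limma). Neither overlapped, and the Norad-/- group was the tighter of the groups for both genes.

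Ccr2, which brings monocytes out of the bone marrow, had 13.4, 10.5 and 10.3 FPKM in Norad-/- spleens against 18.1, 20.3 and 14.7 FPKM in Norad+/+ spleens (log2 fold change -0.63, SE 0.16, adjusted p = 0.165 from limma). Ccr3, the eotaxin receptor of eosinophils, had 5.83, 4.801 and 13.2 FPKM in Norad-/- spleens against 18.8, 17.4 and 19.98 FPKM in Norad+/+ spleens. Norad-/- replicate 3 lay between its own group and the Norad+/+ libraries, and the log2 fold change was -1.37 (SE 0.36, adjusted p = 0.172 from limma). Without that library it was -1.80 (SE 0.13, adjusted p = 0.0350 from limma). Cxcr1, the other neutrophil receptor, stayed below the filter, with 0.135, 0.101 and 0.279 FPKM in Norad-/- spleens against 0.560, 1.28 and 1.008 FPKM in Norad+/+ spleens. It was named after its values were seen.

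Ligands made by myeloid cells and platelets included Ccl6 and Cxcl5. Ccl6, a CC chemokine of mouse macrophages and neutrophils, had 24.3, 26.3 and 22.9 FPKM in Norad-/- spleens against 33.4, 42.2 and 39.6 FPKM in Norad+/+ spleens, with no overlap (log2 fold change -0.64, SE 0.11, adjusted p = 0.138 from limma). Cxcl5, a ligand of Cxcr2, had 0.942, 0.534 and 1.03 FPKM in Norad-/- spleens against 1.61, 1.22 and 1.78 FPKM in Norad+/+ spleens (log2 fold change -0.83, SE 0.28, adjusted p = 0.195 from limma). It was the 1 member that passed the spleen filter through Norad+/+ libraries alone. Ccl9 ran from 15.1 to 16.5 FPKM in Norad-/- and from 13.2 to 21.7 FPKM in Norad+/+ spleens. Ccl2, the ligand of Ccr2, and Ccl24, a ligand of Ccr3, overlapped between groups with log2 fold changes of -0.10 (SE 0.26) and 0.01 (SE 0.33), and both changed sign in other settings.

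Marker genes of blood cells were summed in the same libraries. All 10 neutrophil markers found in the table had a log2 fold change below 0, 5 of them at an unadjusted p under 0.05, beside 13.6% of all genes with lower values, and their median was -1.95. Their summed FPKM was 306, 183 and 1560 in Norad-/- spleens against 897, 2554 and 1989 in Norad+/+ spleens. For 12 red cell precursor markers the sums were 3496, 3261 and 15481 FPKM in Norad-/- spleens against 9640, 25932 and 23118 FPKM in Norad+/+ spleens, and 10 had a lower value at an unadjusted p under 0.05, beside the same 13.6%. Both sums of Norad-/- replicate 3 lay within the Norad+/+ range. For 9 monocyte and macrophage markers the sums were 935, 918 and 1153 FPKM in Norad-/- spleens against 1222, 1327 and 1431 FPKM in Norad+/+ spleens, with no overlap, and 6 of the 9 had a lower value at an unadjusted p under 0.05. No marker of these 3 lists had 0.1 FPKM or less in all spleens.

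The same was done for T cells and dendritic cells. All 9 T cell markers found had a higher value at an unadjusted p under 0.05, beside 7.42% of all genes, with summed FPKM of 679, 689 and 582 in Norad-/- spleens against 473, 420 and 422 in Norad+/+ spleens. For 7 dendritic cell markers the sums were 106, 121 and 114 FPKM in Norad-/- spleens against 88.5, 77.0 and 93.5 FPKM in Norad+/+ spleens, and 3 of the 7 had a higher value at an unadjusted p under 0.05. None of the genes in these lists passed after adjustment, and the part of cell composition in the values of Ccr9, Ccr7, Cxcr2 and the other members was not tested.

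**Figure D3:**
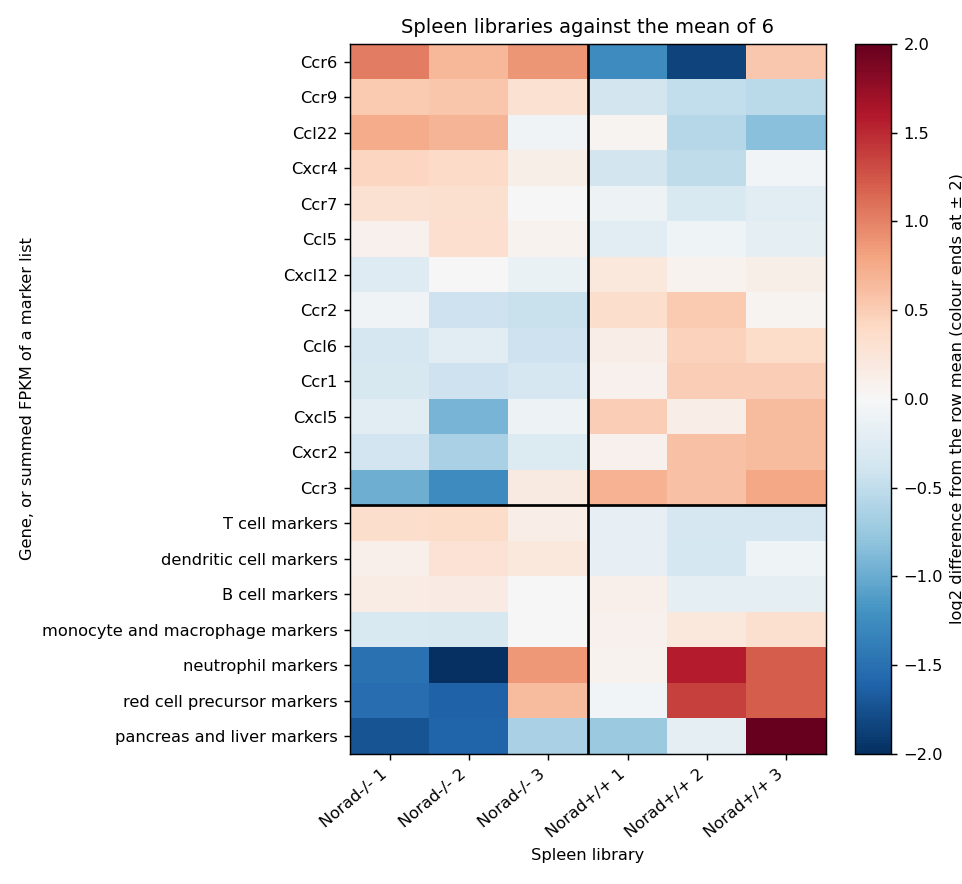
Each row gives 1 member with an unadjusted p under 0.05 in spleen, or the summed FPKM of 1 marker list below the horizontal line, as log2 of FPKM plus 0.1 minus the mean of the 6 libraries, with Norad-/- libraries left of Norad+/+ libraries. Neutrophil and red cell precursor sums of Norad-/- replicate 3 resemble Norad+/+ spleens, and Ccr6 in Norad+/+ replicate 3 resembles Norad-/- spleens.

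Ligands of effector T cells and natural killer cells included Ccl5, Ccl3 and Ccl4. Ccl5, made by memory T cells and natural killer cells, had 123, 146 and 122 FPKM in Norad-/- spleens against 99.5, 110 and 102 FPKM in Norad+/+ spleens, with no overlap (log2 fold change 0.33, SE 0.10, adjusted p = 0.186 from limma). The summed FPKM of 7 natural killer cell markers was 98.9, 85.7 and 91.6 in Norad-/- spleens against 103, 106 and 110 in Norad+/+ spleens. Of these markers 0 had a higher and 2 a lower value at an unadjusted p under 0.05, beside 7.42% and 13.6% of all genes. The 9 T cell markers, given above, all had higher values in Norad-/- spleens. Ccl3 and Ccl4 lay between 2.32 and 3.74 FPKM in all 6 spleens, with log2 fold changes of -0.08 (SE 0.20) and -0.17 (SE 0.13).

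The interferon-induced ligands of Cxcr3 differed from each other in spread. Cxcl9 had 33.8, 134 and 120 FPKM in Norad-/- spleens against 160, 103 and 19.8 FPKM in Norad+/+ spleens. Its low library was replicate 1 in Norad-/- and replicate 3 in Norad+/+ spleens, and the coefficient of variation reached 56.6% and 74.7% in these groups, beside medians of 11.7% and 16.4% over the members tested. The log2 fold change was 0.25 (SE 0.89), and -0.65 (SE 0.65) without Norad+/+ replicate 3. Cxcl10, its neighbour on chromosome 5, had 31.3, 23.9 and 24.2 FPKM in Norad-/- spleens against 23.5, 18.9 and 20.5 FPKM in Norad+/+ spleens (log2 fold change 0.33, SE 0.14, adjusted p = 0.245 from limma), without overlap and without the low libraries of Cxcl9. Their receptor Cxcr3 had 11.7, 23.6 and 11.3 FPKM in Norad-/- spleens against 10.5, 10.4 and 8.56 FPKM in Norad+/+ spleens (log2 fold change 0.57, SE 0.29, adjusted p = 0.310 from limma), where Norad-/- replicate 2 alone was high and the log2 fold change without it was 0.23.

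Ccl22, a dendritic cell ligand for regulatory T cells, had 16.4, 15.8 and 9.34 FPKM in Norad-/- spleens against 10.2, 6.58 and 5.43 FPKM in Norad+/+ spleens (log2 fold change 0.90, SE 0.30, adjusted p = 0.196 from limma). The groups overlapped through Norad-/- replicate 3. Its receptor Ccr4 had 1.96, 1.95 and 1.66 FPKM in Norad-/- spleens against 1.72, 1.15 and 1.0104 FPKM in Norad+/+ spleens (log2 fold change 0.52, SE 0.22, adjusted p = 0.244 from limma). Cxcl16, a transmembrane ligand of macrophages and dendritic cells, ran from 13.4 to 23.6 FPKM in Norad-/- and from 11.5 to 14.9 FPKM in Norad+/+ spleens, and its receptor Cxcr6 from 5.87 to 10.6 FPKM in Norad-/- and from 4.12 to 7.68 FPKM in Norad+/+ spleens. Xcl1, secreted by natural killer and CD8+ T cells, and Xcr1, its receptor on cross-presenting dendritic cells, had log2 fold changes of 0.16 (SE 0.20) and 0.05 (SE 0.13). Cx3cr1 had 9.24, 9.75 and 11.1 FPKM in Norad-/- spleens against 11.1, 8.41 and 8.07 FPKM in Norad+/+ spleens (log2 fold change 0.14, SE 0.15).

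Neighbours within an array had values on both sides of 0. Among genes tested in the chromosome 9 receptor array, Ccr9 had a higher value and Ccr1, Ccr2 and Ccr3 had lower values at an unadjusted p under 0.05, and Cxcr6 and Xcr1 had neither. In the chromosome 11 ligand array, Ccl5 had a higher and Ccl6 a lower value, and Ccl9, Ccl3 and Ccl4 had neither. Over all genes tested in spleen, 7.42% had higher and 13.6% had lower values at this p, and none of these members passed after adjustment. Members with PUMILIO elements were likewise on both sides of 0 in spleen. The log2 fold changes were -0.63 in Ccr2, with 3 elements, and -0.86, -0.83 and 0.33 in Cxcr2, Cxcl5 and Cxcl10, with 1 each.

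**Figure D4:**
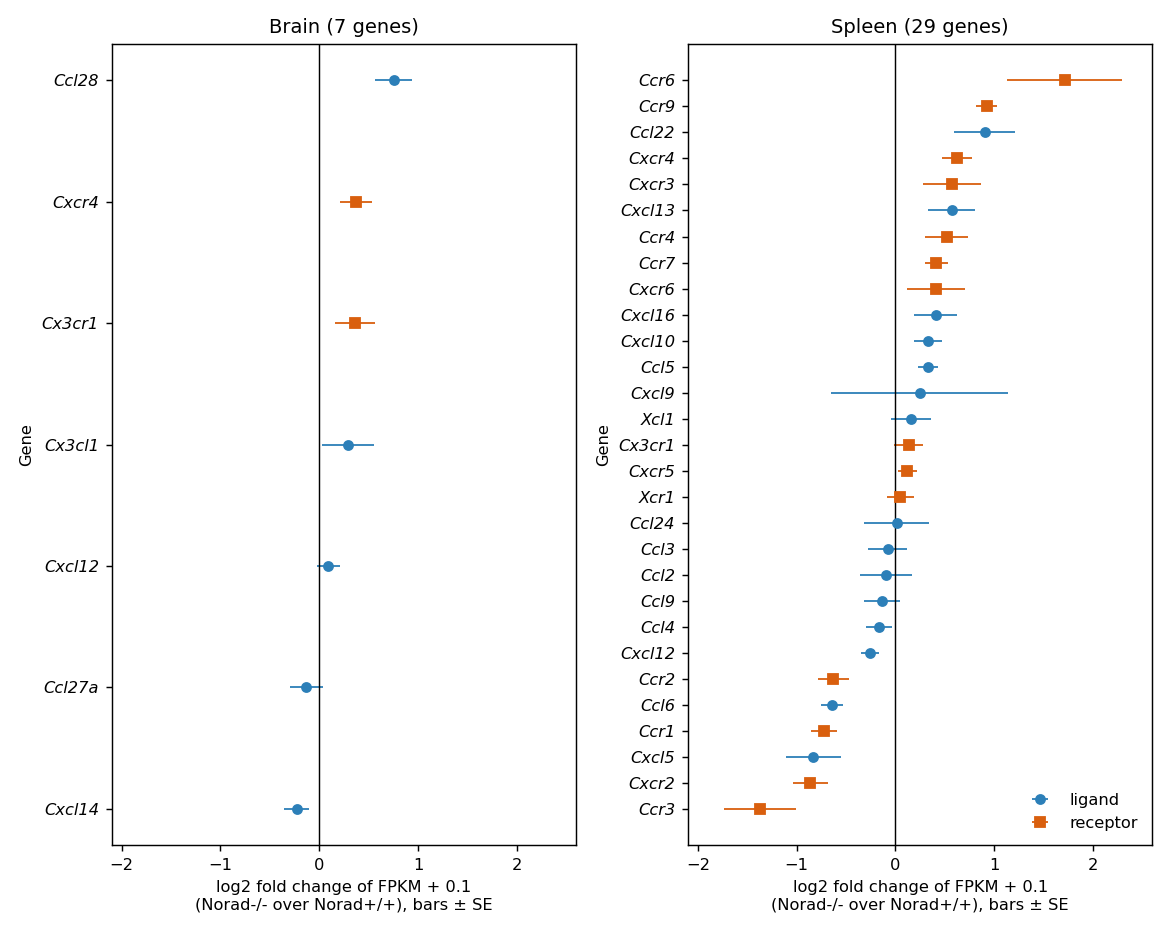
Log2 fold change of FPKM plus 0.1, Norad-/- over Norad+/+, for 7 of the 8 members tested in brain and 29 of the 30 tested in spleen, with bars of 1 SE, circles for ligands and squares for receptors. In spleen, receptors stand at both ends, from Ccr6 at 1.71 to Ccr3 at -1.37, and ligands fill most of the middle.

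In brain 0 of 8 tested members passed an adjusted p of 0.05 in limma, beside 0.0153% of the 13051 genes tested. At an unadjusted p under 0.05, 1 member was higher in Norad-/- brains, beside 3.73% of all genes, and 0 were lower, beside 2.89% of all genes. That member was Ccl28, which passed the filter through the Norad-/- libraries alone, so the count is no support for higher values. Groups did not overlap for 2 members with higher values, Ccl28 among them, and for 0 with lower values, where 10.6% and 6.56% of all genes tested did so. The members' median log2 fold change was 0.19, beside 0.02 over all genes, and became 0.03 when Norad+/+ brain replicate 3 was left out. Without Norad-/- brain replicate 1 it was 0.02, but over 7 members, since Ccl28 then fell below the filter.

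Ccl28, a mucosal chemokine that binds Ccr10 and has 2 PUMILIO elements in its 3′ UTR, had the smallest p. It had 1.405, 1.33 and 1.201 FPKM in Norad-/- brains against 0.799, 0.881 and 0.564 FPKM in Norad+/+ brains, with no overlap. The log2 fold change was 0.75 (SE 0.18, unadjusted p = 0.00578, adjusted p = 0.623 from limma). Its mean over all brains, 1.03 FPKM, passed the filter through the Norad-/- libraries alone, and it fell out of the test when any 1 of them was left out. Its receptor Ccr10 was below the filter in both tissues.

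Cxcr4 had 1.51, 1.46 and 1.55 FPKM in Norad-/- brains against 0.943, 1.396 and 1.12 FPKM in Norad+/+ brains, close values that did not overlap (log2 fold change 0.37, SE 0.16, adjusted p = 0.718 from limma). Its ligand Cxcl12 had 17.1, 14.3 and 15.3 FPKM in Norad-/- brains against 14.6, 16.0 and 13.2 FPKM in Norad+/+ brains, which overlapped (log2 fold change 0.09, SE 0.12).

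The pair Cx3cl1 and Cx3cr1 overlapped between genotypes. Cx3cl1 had 198, 214 and 228 FPKM in Norad-/- brains against 232, 197 and 116 FPKM in Norad+/+ brains, and the low value was that of replicate 3, the library that stood apart. The log2 fold change was 0.29 (SE 0.26, adjusted p = 0.777 from limma), and -0.01 (SE 0.11) without that library. Cx3cr1 had 12.1, 8.09 and 8.78 FPKM in Norad-/- brains against 8.61, 7.75 and 5.98 FPKM in Norad+/+ brains (log2 fold change 0.36, SE 0.20, adjusted p = 0.718 from limma), and the log2 fold change was 0.19 without Norad-/- replicate 1 and 0.22 without Norad+/+ replicate 3. The summed FPKM of 8 microglial markers was 85.0, 82.7 and 90.1 in Norad-/- brains against 81.6, 82.8 and 72.2 in Norad+/+ brains, also lowest in Norad+/+ replicate 3.

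Cxcl14, with 1 PUMILIO element, had 30.5, 28.8 and 32.5 FPKM in Norad-/- brains against 35.2, 41.3 and 31.7 FPKM in Norad+/+ brains, and the groups overlapped by 1 library (log2 fold change -0.23, SE 0.13, adjusted p = 0.718 from limma). Ccl27a had 6.16, 5.81 and 6.24 FPKM in Norad-/- brains against 6.41, 5.39 and 8.48 FPKM in Norad+/+ brains, with Norad+/+ replicate 3 the high one (log2 fold change -0.13, SE 0.17, and 0.04 without it). The 50 members below the filter had a mean of at most 0.734 FPKM in brain.

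**Figure D5:**
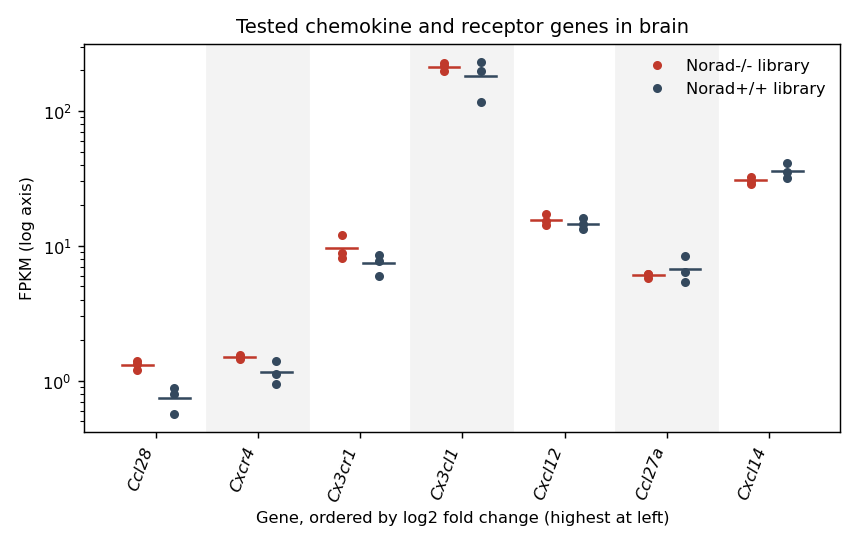
FPKM (log axis) of 7 of the 8 members tested in brain, with 1 point per library, Norad-/- left of Norad+/+ for each gene, short bars at the mean of 3, and genes ordered by log2 fold change. Ccl28 and Cxcr4 do not overlap between genotypes, and the low Norad+/+ point of Cx3cl1, at 116 FPKM, is replicate 3.

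The difference of the genotype effect between brain and spleen could be fitted for the 4 members that passed in both organs. None passed an adjusted p of 0.05 in limma, beside 0.0191% of the 10481 genes in this fit. At an unadjusted p under 0.05 stood 1 of the 4, beside 14.3% of all genes, and 0 of 4 after rescaling to TPM, quantile normalization or a replicate block. That was Cxcl12, whose log2 fold change in spleen minus that in brain was -0.35 (SE 0.15, unadjusted p = 0.0452, adjusted p = 0.338 from limma), and its unadjusted p with the replicate block was 0.0973. For Cxcr4 the difference was 0.25 (SE 0.22, adjusted p = 0.626 from limma) and for Cx3cr1 it was -0.23 (SE 0.26).

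Genes around the family were counted from a list of 77 that act beside chemokines, among them decoy receptors, other chemoattractants, receptor signalling, ligand processing and inducers of chemokine transcription. In spleen 68 were tested and 0 passed after adjustment, and at an unadjusted p under 0.05, 10 had higher and 12 lower values, beside 7.42% and 13.6% of all genes. The smallest p belonged to Fpr1, the formyl peptide receptor of neutrophils, which had 2.52, 2.62 and 3.84 FPKM in Norad-/- spleens against 7.78, 10.3 and 11.998 FPKM in Norad+/+ spleens (log2 fold change -1.71, SE 0.22, adjusted p = 0.107 from limma). Il1b, an inflammatory cytokine of myeloid cells, had 16.8, 13.1 and 10.1 FPKM in Norad-/- spleens against 29.5, 29.7 and 31.0 FPKM in Norad+/+ spleens (log2 fold change -1.20, SE 0.18, adjusted p = 0.129 from limma). Both genes had groups that did not overlap, with lower values in Norad-/- spleens.

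The list's median log2 fold change in spleen was 0.06, beside -0.02 over all genes. All 6 tested decoy and atypical receptors had a value below 0, from -1.24 to -0.05, with a median of -0.38. At an unadjusted p under 0.05, 2 of them had a lower value, beside 13.6% of all genes. In brain 33 genes of the list were tested, and 0 passed either after adjustment or at an unadjusted p under 0.05. The smallest p there was that of Elmo1, a partner of Dock2 in receptor-driven actin remodelling, with 40.3, 26.6 and 28.1 FPKM in Norad-/- brains against 24.8, 26.0 and 19.97 FPKM in Norad+/+ brains (log2 fold change 0.41, SE 0.19, adjusted p = 0.718 from limma). Next came Tnfrsf1a, a receptor of tumour necrosis factor, at 4.70, 4.76 and 5.33 FPKM in Norad-/- brains against 4.34, 4.81 and 3.59 FPKM in Norad+/+ brains (log2 fold change 0.22, SE 0.13).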

How the data were processed

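FPKM values of 12 libraries, deposited by the authors, were analysed. After removing low-quality reads, the authors mapped the reads with TopHat2 2.0.12 to GRCm38 and kept those with a unique place. The submitters' processing notes name StringTie 1.2.2 for FPKM, and featureCounts 1.4.6 and edgeR 3.8.6 for the authors' own comparison. The annotation behind the FPKM values is not given in the sources used here. In the tables, 0 value columns belong to no sample. FPKM are not counts, and library depth was inferred from the value that a single read gives in genes of 1 transcript. Whole reads, within 2%, accounted for only 45.0% to 49.8% of values up to 0.1 FPKM, too few to recover counts, so no count test was run and low values rest on few reads.

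In each tissue the 6 libraries had to average 1 FPKM or more for a gene to be tested, on log2(FPKM + 0.1) with limma 3.58.1 (trended variance, moderated two-sided test) in R 4.3.3. P was adjusted by Benjamini-Hochberg over all genes tested, at 0.05. The pseudocount understates changes of low genes. The genotype by tissue term and brain against spleen were fitted with the same filter, applied in each organ for that term and over the 6 Norad+/+ libraries for brain against spleen. P-values measure the spread between these mice, and brains and spleens may come from the same animals. The steps were tested on simulated data with independent noise, in which 100 genes were shifted by 1 (log2) and another 100 by 2. Of those shifted by 1, 59 passed in brain among 13054 genes and 73 in spleen among 12368. So many shifted genes ease the Benjamini-Hochberg threshold, whereas in the data 2 genes passed in brain and 4 in spleen. These detection rates therefore do not carry over to the data. Each tissue had 7 false calls.

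The members and lists were chosen with earlier results of these data known. Named were, per tissue, the 8 members with the smallest p, the 8 most abundant, any called, and ligand and receptor pairs that both passed the filter, and for pathway genes the 2 with the smallest p. The other members are given by range or count. Coordinates, 3′ UTRs and shared 75-base stretches come from GENCODE M21, which matched 57 of 58 members by name. Python 3.11.15, pandas 2.3.3, numpy 2.4.6 and matplotlib 3.10.9 were used. Alternative settings changed the pseudocount, the filter, the scaling or the variance model, added a replicate block, or left out each library in turn. Spleens of other genotypes and the binding libraries of the study were not analysed here. Values of 1 member, counted in all totals, are not reported here.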

Additional observations from a re-analysis of the deposited data

Results flagged for a closer look

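With 3 libraries a group, no group was large enough for a search for single outlying libraries, and no member's genotype effect differed between organs after adjustment. The results that follow are of members below the filter of 1 FPKM, outside the tests of the report, whose Norad-/- libraries all lay above every Norad+/+ library. They are 5 of the 35 values below the filter that averaged 0.1 FPKM or more. Such separation was found in 10.6% of tested genes in brain and 11.6% in spleen, and the share among genes below the filter was not taken. Members with lower values in Norad-/- libraries, such as Cxcr1 in spleen, are outside this rule. They rest on few reads.

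In brain, Ccl12, a mouse ligand of Ccr2, had 0.436, 0.619 and 0.564 FPKM in Norad-/- brains (mean 0.539) against 0.160, 0.299 and 0.197 FPKM in Norad+/+ brains. Ccl7, encoded nearby on chromosome 11, averaged 0.153 FPKM in Norad-/- brains and 0.0519 FPKM in Norad+/+ brains. Ccr9 averaged 0.138 FPKM in Norad-/- brains and 0.0701 FPKM in Norad+/+ brains.

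In spleen, Ccl11, the eotaxin ligand of Ccr3, had 0.923, 1.52 and 0.907 FPKM in Norad-/- spleens (mean 1.12) against 0.765, 0.715 and 0.781 FPKM in Norad+/+ spleens. Ccl27a averaged 0.522 FPKM in Norad-/- spleens and 0.422 FPKM in Norad+/+ spleens, and shares sequence with other genes.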

How the results depend on the processing

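The count of called members was 0 in brain and 0 for the difference between organs under every alternative run. In spleen it was 0 except without Norad-/- replicate 3 (2 members, Ccr3 and Ccr9) and without Norad+/+ replicate 3 (1 member, Ccr6), a range of 0 to 2 when single libraries were left out. In brain against spleen, 29 members were called, 29 to 31 when single libraries were left out, 18 of 19 tested with a filter at 5 FPKM and 42 of 54 tested with no filter. Signs held in every alternative in which a member was tested, at most 15, for 6 of 8 members in brain and 22 of 30 in spleen. Without Norad+/+ brain replicate 3, Ccl27a in brain turned to 0.0446 (range -0.277 to 0.0446 when single libraries were left out) and Cx3cl1 to -0.00646 (range -0.00646 to 0.496). A pseudocount of 1 lowered Ccl28 in brain to 0.406, Cxcr4 in brain to 0.223, Ccr4 in spleen to 0.326 and moved Cxcl5 in spleen to -0.47. Without 1 library, Cxcl10 in spleen was 0.204 (Norad-/- replicate 1) and Cxcr4 in brain 0.247 (Norad+/+ replicate 1). In spleen, rescaling to TPM turned Ccl2 to 0.0191 and Ccl3 to 0.0401, and quantile normalization turned them to 0.0622 and 0.0558. Leaving out single libraries turned Ccl2 (range -0.339 to 0.135), Ccl24 (-0.286 to 0.266), Ccl3 (-0.298 to 0.0364), Cxcl9 (-0.651 to 0.883), Xcl1 (-0.0349 to 0.280) and Xcr1 (-0.0248 to 0.165). The cause of these turns was not tested.

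With a replicate block, 0 members were called in brain and 0 in spleen, and the adjusted p of Ccr9 in spleen was 0.0617 from limma. Same-numbered Norad-/- and Norad+/+ libraries correlated, in their deviations from group means, at 0.0610, 0.0684 and 0.110 in brain and at 0.338, -0.147 and 0.290 in spleen. Differently numbered libraries ran from -0.0920 to 0.0402 in brain and from -0.477 to 0.360 in spleen. These values do not settle whether the numbers pair the mice. The limits are 3 mice a group, FPKM without counts, values under 1 FPKM that rest on few reads, and blood cell marker sums that differ between spleens.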
